A study of Mus musculus with 3 samples.

Results

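Of the chromatin regions that were open in fat cells from 3 mouse depots, 1673 ranked higher in the inguinal library than in either of the other libraries. They were drawn from 24988 regions that held exactly 1 hypersensitive site in the list of each depot, out of 99297 merged regions in all. A further 21 common regions held more than 1 site of a list and were left out. Within these common regions the tag counts of each library were turned into percentiles from 0 to 1, and the members were selected on an inguinal percentile at least 0.2 above both the epididymal and the brown percentile. The measured tag counts thus chose the members, so their higher inguinal tag counts are a description and not a finding.

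DNase I cuts DNA where nucleosomes have been displaced, and the sites it prefers mark promoters, enhancers and insulators that are bound by regulatory proteins. Fat cells share a core of such elements, held open by factors such as PPARγ and C/EBP proteins, which drive the fat cell programme in every depot. Inguinal fat lies under the skin, epididymal fat lies in the abdomen beside the testis, and brown fat burns fuel for heat. A region that is open in all of them can still differ in how strongly it is cut, because more cells have it open or because it is open more of the time in each cell. The tag count of a bulk culture cannot tell these apart.

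The groups were eWAT (epididymal white fat), iWAT (inguinal white fat) and BAT (brown fat pooled from interscapular, cervical and axillary depots), with 1 library each. All came from male NMRI mice aged 4 to 5 weeks. Cells of the stromal-vascular fraction were plated in medium that induces differentiation, with 30 nM insulin, 1 µM rosiglitazone (an agonist of PPARγ) and 10% newborn calf serum, and were collected on day 8. Cultures were used only if more than 50% of the cells had differentiated, so up to that limit they may hold undifferentiated precursors, and every group had been exposed to rosiglitazone. The eWAT list held 60974 sites, the iWAT list 63214 and the BAT list 48308. Where values are given in threes below, the order is eWAT, iWAT, BAT. With no replicate of any depot, no difference between libraries carries an error between cultures and none was tested. Positions are in mm9, and no gene or sequence is attached to them, since an mm9 annotation and genome were not used here. For the same reason the identity of the cells was not checked against marker genes, and the regions are named by position.

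The inguinal members made up 6.70% of the common regions. The same rule with the other depots in front selected 1780 regions stronger in eWAT (7.12%) and 2241 stronger in BAT (8.97%), so the inguinal set was the smallest of these. With percentiles taken among all sites of each list, the brown set was the smallest, with 999 regions against 1669 inguinal ones. The members just inside the limit had a gap of 0.2005 in percentile, and all 5 of them held 26.6 normalized tags in iWAT and 15.4 in BAT. The nearest region outside, on chromosome 7 at 111367370 to 111367641, had a gap of 0.1993 and held 16.7, 41.4 and 20.6 normalized tags. That region had more iWAT tags than the members just inside, but ranked higher in the other libraries as well.

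A normalized tag count is the number of sequence tags in a site, scaled by the authors within each library. The median member held 9.52, 23.6 and 11.1 normalized tags, where the median over all common regions was 12.5, 19.7 and 15.4. The members were thus above the common regions in iWAT and below them in both other libraries. Their median percentiles were 0.253, 0.642 and 0.261. The members' iWAT counts ran from 13.8 to 64.0 normalized tags, with the middle 50% between 19.7 and 28.6. Members were most frequent among regions of moderate inguinal strength. They made up 13.03% of the regions with an iWAT percentile from 0.5 to 0.75, but 7.43% above that and 6.47% from 0.25 to 0.5. Only 73 members (4.36%) reached the top 10% of iWAT. The rule itself limits this, since a high iWAT percentile is needed for a gap and a region high everywhere cannot have one.

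**Figure D1:**
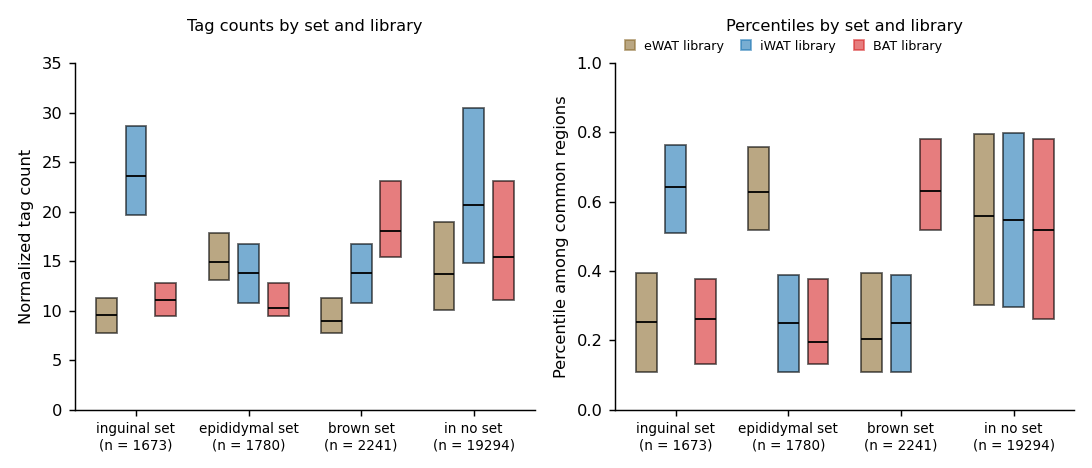
Normalized tag count (left) and percentile among the 24988 common regions (right) of each library for the inguinal, epididymal and brown sets and for the 19294 regions in no set. Boxes span the middle 50% of regions and the line is the median; in the inguinal set the iWAT box (0.511 to 0.763 in percentile) lies above those of eWAT and BAT, as the rule requires.

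The rule held both other percentiles at least 0.2 below that of iWAT, and in members they reached up to 0.758 in eWAT and 0.738 in BAT. Of the pair, the eWAT percentile was the higher in 870 members and the BAT percentile in 803. Many members were also close to going unlisted in the other depots. In BAT, 621 members (37.1%) had a peak score within 2 of the lowest score listed, which was 10, against 18.2% of all common regions. In eWAT, where the lowest score was 11, the shares were 19.8% of the members and 9.63% of all common regions. Both held for 230 members (13.7%), against 4.41% of all common regions. A region a little weaker in those libraries would not have been listed there and could not have been a member. These scores count the same sites as the rule, so they describe the members and do not support their choice.

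The counts behind each site were small. Normalized tag counts were whole multiples of a step, the worth of 1 tag, which was 0.595 for eWAT, 0.985 for iWAT and 0.857 for BAT. The median member held 16, 24 and 13 tags. Near the median of the common regions, 1 tag covered 4.20% of regions in eWAT, 3.69% in iWAT and 4.11% in BAT, so a gap of 0.2 could rest on about 5 tags. For each region the exact 95% binomial interval of the iWAT share of tags was set against the median share over all common regions, which was 47.8% against eWAT and 52.2% against BAT. In 184 members (11.0%) the interval lay above the median share in both pairings, where 251 of all 24988 common regions (1.00%) did. Against eWAT alone it did so in 332 members (19.8%), and against BAT alone in 337 (20.1%). For the other members the lead of iWAT over at least 1 depot was within the counting error of the region. These intervals cover counting error only, and PCR copies of a tag are not independent molecules.

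The gap and the interval come from the same tags, so the shares by gap are a description. Between gaps of 0.2 and 0.3, 37 of 970 members (3.81%) lay beyond the counting interval in both pairings, between 0.3 and 0.4 it was 32 of 444 (7.21%), and above 0.4 it was 115 of 259 (44.4%). The member with the largest gap was found between 14984065 and 14984341 of chromosome 17, where the site had 6.54, 42.4 and 9.42 normalized tags. These were 11 tags (exact Poisson 95% interval 5.49 to 19.7), 43 (31.1 to 57.9) and 11 (5.49 to 19.7). The iWAT interval did not overlap the others, and the ratio of iWAT to eWAT was 4.27 times the median ratio of all common regions, that of iWAT to BAT 3.59 times. Its percentile among the common regions was 0.922 in iWAT against 0.0328 in eWAT and 0.131 in BAT. A region that ranked low among them in both other libraries thus ranked in their top 10% in iWAT.

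The next members by gap showed the same profile. On chromosome 7 at 139286283 to 139286581 the site held 10, 30 and 9 tags. On chromosome 10 at 118452560 to 118452873 it held 14, 40 and 11 tags, and on chromosome 16 at 73512881 to 73513184 it held 12, 36 and 11. The eWAT and BAT counts lay within 3 tags of each other at each of these, and iWAT stood alone. On chromosome 8 at 118421115 to 118421422 the counts were 10, 30 and 10 tags, and on chromosome X at 39238152 to 39238422 they were 9, 30 and 10. On chromosome 14 the region at 105796545 to 105796812 held 16, 45 and 11 tags, the highest iWAT count of these members, and its nearest common region, 45.1 kb away, was itself a member. In 9 of the 10 members with the largest gap, the iWAT interval of the tag number lay above both other intervals. Tag numbers were not scaled between libraries, where 1 tag was worth 0.595, 0.985 and 0.857 normalized tags. The count of 9 holds for tag numbers only and was not made on the normalized scale. These members were picked on the same tags as the extremes of 24988 regions, so the intervals describe the counts and are no test of a difference. The exception in tag numbers lay on chromosome 10 at 125438043 to 125438455, with 12, 28 and 9 tags. The remaining members of this group lay on chromosome 14 at 46319752 to 46320026 (14, 36 and 12 tags) and on chromosome 13 at 83480735 to 83480973 (11, 31 and 11 tags).

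Most of these leading members stood apart from other listed sites. In 7 of the 10, no other region of any list lay within 10 kb, and the chromosome 13 region had none within 50 kb. Over all members with a gap above 0.4, 76 of 259 (29.3%, exact 95% interval 23.9 to 35.3) had no other region within 10 kb, against 25.8% (25.3 to 26.4) of all common regions. Isolation was therefore not a general property of members with a large gap, and the intervals overlapped.

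Most of the members with the highest iWAT tag count were above the median of the common regions in every depot. The highest, on chromosome 15 at 41350321 to 41350561, held 16.7, 64.0 and 18.8 normalized tags, or 28, 65 and 22 tags. Its percentiles were 0.713, 0.986 and 0.662, so it ranked high in each library and highest in iWAT. Next came 173177529 to 173177877 of chromosome 2 with 9.52, 58.1 and 15.4 normalized tags, or 16, 59 and 18 tags, and its iWAT to eWAT ratio was 4.02 times the median ratio. It was the only one of these 10 with a gap above 0.4 (0.457). The region on chromosome 10 at 10200825 to 10201143 held 28, 57 and 24 tags, and that on chromosome 3 at 108573865 to 108574111 held 30, 53 and 18. The gaps of the other 9 ran from 0.2059 to 0.2735, close to the limit, because their eWAT or BAT percentile was also high. In 5 of these 10 members the iWAT interval lay above both others, again in tag numbers that were not scaled between libraries.

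**Figure D2:**
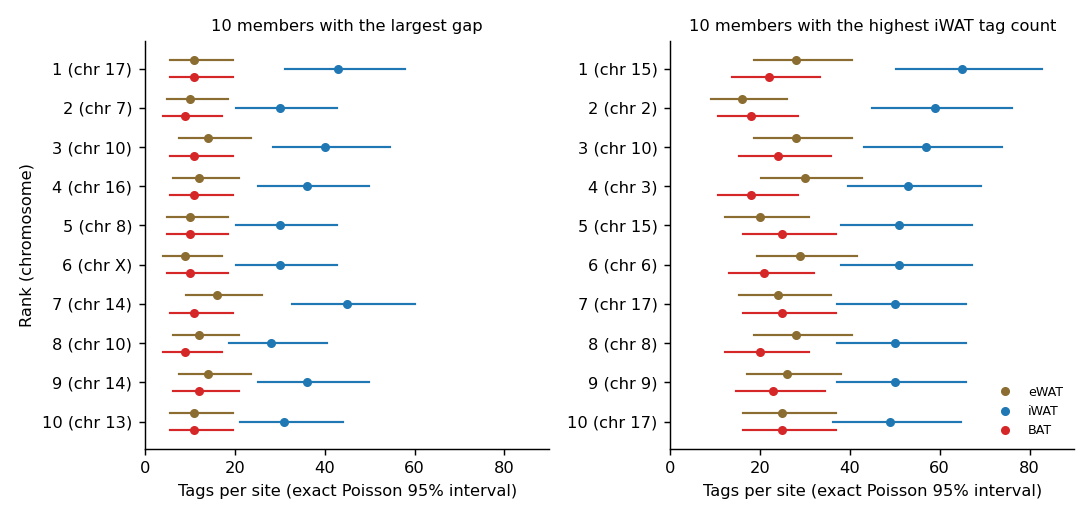
Tags per site in each library for the 10 members with the largest percentile gap (left) and the 10 with the highest iWAT tag count (right); points are tag numbers and bars their exact Poisson 95% intervals. Tag numbers are not scaled between libraries. On the left the iWAT points lie between 28 and 45 tags and the eWAT and BAT points between 9 and 16. On the right eWAT and BAT reach 30 and 25 tags.

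The chromatin around the members was also cut more in iWAT, relative to the other libraries. The authors' fold of a site over its surroundings gives the tag density in the rest of 10 kb around it, which consists of tags that the rule did not use. In the median member the surroundings held 5.78, 7.06 and 5.43 normalized tags per kb. The intervals of medians below cover the spread over regions, taken as independent, and no error between cultures. The median ratio of iWAT to eWAT was 1.22 in the members (95% interval of the median 1.21 to 1.25) and 1.12 (1.12 to 1.12) in the other common regions, and that of iWAT to BAT was 1.30 (1.27 to 1.31) against 1.13 (1.13 to 1.14). The shift of the surroundings was small beside that of the sites, whose median ratio was 2.43 against eWAT and 2.07 against BAT, where all common regions had 1.52 and 1.25.

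Against iWAT, the epididymal and brown sets showed the matching pattern for their own depot. The surroundings ratio of eWAT to BAT was not taken. In the epididymal set the surroundings ratio of iWAT to eWAT was 0.960 (0.949 to 0.974), and in the brown set that of iWAT to BAT was 0.978 (0.966 to 0.990). Where no other region of any list lay within 5 kb, the inguinal members had 1.18 (1.15 to 1.203) against eWAT and 1.26 (1.24 to 1.28) against BAT, where the other common regions had 1.06 (1.05 to 1.06) and 1.09 (1.09 to 1.099). The ratio also rose with the gap, from 1.19 at gaps of 0.2 to 0.3 to 1.27 at 0.3 to 0.4 and 1.30 above 0.4 for eWAT, and from 1.26 to 1.31 and 1.40 for BAT. Listing required a fold of at least 4 in each library, which limits how many surrounding tags a weak site can have, and the flanks of the site itself count as surroundings. In 25% of the members the eWAT fold was at most 5.81, and the BAT fold at most 7.05. The part of these limits in the result was not tested.

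**Figure D3:**
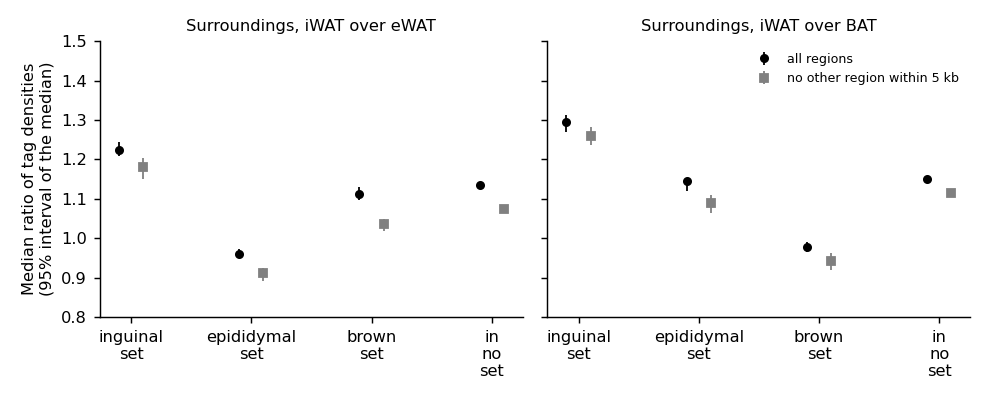
Median ratio of the tag density in the surroundings, iWAT over eWAT (left) and iWAT over BAT (right), for each set; bars are 95% intervals of the median, circles all regions and squares those with no other region within 5 kb. The inguinal set is highest in both panels, at 1.22 and 1.30 over all regions. The vertical axis starts at 0.8.

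The fold of a site over its surroundings has the site's tags, which chose the members, as its numerator, so its values in the members are a description. It had medians of 7.35, 14.9 and 9.01, against 8.58, 11.7 and 10.5 over all common regions. In 1610 of 1673 members (96.2%) the fold was highest in iWAT, which also held for 55.4% of all common regions, and in the other 63 it was not. When the percentiles were taken from this fold instead of the tag count, 1853 regions (7.42%) met the rule, and 780 of the members (46.6%) were among them. With that choice the surroundings ratio fell below that of the other common regions (0.850 times for eWAT and 0.847 times for BAT). The fold has the surroundings as its divisor, so that choice uses the surrounding tags, and the part of this in the fall was not tested.

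The tags of the members were also more sharply arranged around the site's centre in the inguinal library. The focus ratio, the share of tags that lie on the side of the centre that their strand predicts, had a median of 0.733 in iWAT for the members, against 0.705 for all common regions. In eWAT and BAT the members had 0.667 and 0.690, below the 0.688 and 0.706 of all common regions. At like depth the iWAT value was still higher: among sites with 20 to 29 iWAT tags, 918 members had a median of 0.737 (middle 50% 0.681 to 0.794) and 5518 regions in no set had 0.704 (0.649 to 0.763). The ranges overlapped widely. The epididymal and brown sets were likewise sharper in their own library, with 0.710 in eWAT at 12 to 19 tags (204 regions) and 0.739 in BAT at 10 to 14 tags (108 regions), where regions in no set had 0.682 and 0.70. The epididymal set held no site below 16 eWAT tags and the brown set none below 13 BAT tags. Their depth in these ranges was thus not like that of the regions in no set. The focus ratio comes from the tags that chose the members and is given as a description.

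The centres of the 3 sites of a member lay slightly further apart than in all common regions, as they did in the other sets. The centres of the eWAT and BAT sites lay a median of 55 bp apart in members and 43 bp apart in all common regions. The iWAT centre lay 44 bp from the eWAT centre and 46 bp from the BAT centre, against 41 and 44 bp. In the epididymal set the iWAT and BAT centres lay 58 bp apart, and in the brown set the iWAT and eWAT centres 54 bp. The merged members were 303 bp wide in the median and all common regions 294 bp, against 306.5 bp in the epididymal and 305 bp in the brown set, with members ranging from 224 to 621 bp.

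Members tended to lie near other members. Of the 1673, 480 had another common region with 1 site per list within 10 kb, and in 48 of them (10.0%, exact 95% interval 7.47 to 13.04) the nearest such region was itself a member. Over all 8232 common regions with such a neighbour the share was 5.77%, and over those that were not members 5.51% (5.01 to 6.04). The share among members was thus 1.81 times that among other common regions (95% interval 1.37 to 2.41, counting error only). Since these 48 members form 26 different pairs, most pairs are counted from both sides and the intervals of the share and of the ratio are too narrow. Neighbours are separate sites with their own tags, which the rule did not use to place the first region, but they share the locus and the libraries. In the brown set the nearest region was an inguinal member in 4.04% and in the epididymal set in 5.70%. Nearness to the own kind was not particular to the inguinal set: the nearest region was of the same set in 12.5% of the epididymal and 17.1% of the brown set. When only neighbours between 1 and 10 kb were counted the ratio was 1.56. When percentiles were taken from the fold over the surroundings it turned to 0.744 (0.510 to 1.08), an interval that included 1.

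**Figure D4:**
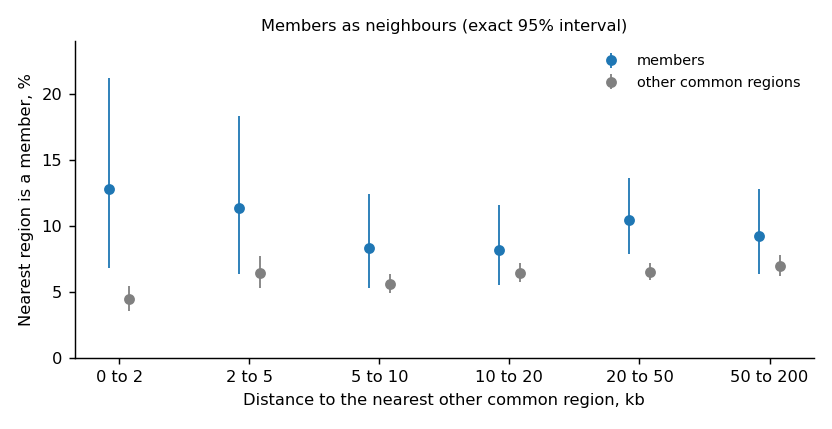
Share of regions whose nearest other common region is a member, by the distance to it in kb, for members (blue) and other common regions (grey), with exact 95% intervals. Within 2 kb the share is 12.8% for members and 4.43% for the others; the intervals overlap in every other class but 20 to 50 kb, where the shares are 10.5% and 6.53%.

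Of the 26 pairs, 6 lay within 2 kb. The closest pair, 0.82 kb apart on chromosome 13, consisted of the region at 104775773 to 104776022, with 13, 30 and 11 tags, and the region at 104776580 to 104776855, with 19, 29 and 18. On chromosome 5 the regions at 22646121 to 22646564 and 22647022 to 22647328 held 13, 25 and 16 tags and 14, 27 and 17 tags. Both regions of this pair had nearly the same profile. On chromosome 3 the region at 134292947 to 134293285 held 18, 36 and 15 tags and its partner at 134292094 to 134292365 held 16, 22 and 13. On chromosome 4 the regions at 85675942 to 85676229 and 85676869 to 85677169 held 12, 29 and 16 tags and 14, 24 and 13 tags. In each of these pairs iWAT had the highest tag number at both regions, as membership requires.

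The neighbours of members had slightly higher iWAT ratios than those of regions in no set. The nearest common region within 10 kb of a member had a median tag ratio of iWAT to eWAT of 1.57 (95% interval of the median 1.52 to 1.65), against 1.51 (1.51 to 1.53) for the neighbours of regions in no set. These intervals overlapped, and so did that beside the brown set, where the ratio was 1.52 (1.49 to 1.56). For iWAT to BAT the ratio was 1.34 (1.28 to 1.39) against 1.24 (1.23 to 1.25), but beside the epididymal set it was 1.33 (1.27 to 1.37), so this was not particular to the members. These medians include the neighbours that were members themselves. The iWAT percentile of the neighbour exceeded the mean of the other percentiles in 269 of 480 cases (56.0%), against 48.5% beside regions in no set. Neighbours that were members are again included, and in them the rule requires this lead.

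Regions listed in iWAT alone were about as frequent beside the members as beside other common regions. An iWAT-only region lay within 10 kb of 26.2% of members (24.1 to 28.4) and of 25.7% of other common regions (25.2 to 26.3). For eWAT-only regions the shares were 23.5% and 23.3%. A BAT-only region lay beside 15.6% of members (13.9 to 17.4) and 17.6% of the others (17.1 to 18.1), a ratio of 0.887 (0.790 to 0.994). Regions listed in both white depots but not in BAT lay beside 16.6% of members (14.8 to 18.4) and 14.5% of other common regions (14.1 to 15.0), a ratio of 1.14 (1.02 to 1.27). The interval of that ratio included 1 with a gap of 0.3 (0.991 to 1.38), percentiles among all sites (0.988 to 1.24), an overlap of 50% (0.982 to 1.30) and lists of equal length (0.985 to 1.29). It also did so with a tag ratio at least 2 times the median ratio (0.9885 to 2.02). The single shares have intervals that overlap, and the intervals of the ratios come close to 1. With percentiles from the fold over the surroundings these turned to 0.792 for iWAT-only, 1.08 for BAT-only and 0.867 for regions of both white depots. Within 50 kb that last difference was gone, with 54.0% and 53.9%, while BAT-only regions still lay beside 50.2% of members (47.8 to 52.6) against 54.1% (53.5 to 54.8). The epididymal set had as few BAT-only regions nearby, beside 14.3% within 10 kb and 49.7% within 50 kb, so this was not particular to the members. A common region lay within 10 kb of 28.7% of members (26.5 to 30.9) and 33.3% of other common regions (32.7 to 33.9), and here the intervals did not overlap. Members thus had common regions within 10 kb less often than the rest. The epididymal set had 30.56% (28.43 to 32.76), an interval that overlapped that of the members, and the brown set had 33.15%. Within 50 kb the shares were 77.11% for members, 77.25% for the epididymal and 76.66% for the brown set. Regions in no set had 80.55% there, so the lower share was not particular to the members.

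Members occurred on every autosome and on chromosome X. Their share of the common regions was highest on chromosome 15, with 95 of 1066 (8.91%, exact 95% interval 7.27 to 10.8), and on chromosome 13, with 111 of 1313 (8.45%, 7.01 to 10.1). It was lowest on chromosome 1, with 95 of 1723 (5.51%, 4.48 to 6.70), and on chromosome 11, with 88 of 1589 (5.54%, 4.47 to 6.78). The intervals of chromosomes 13 and 15 lay above the overall 6.70%, with 20 chromosomes compared and no adjustment made. The share on these 2 chromosomes was 1.33 times that elsewhere (1.16 to 1.53), a pair picked after the values were seen. With percentiles from the fold over the surroundings the ratio was 1.004.

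On chromosome 15 the shift was not limited to members. Over all its common regions the median tag ratio of iWAT was 1.60 against eWAT and 1.30 against BAT, the highest of the chromosomes, where the genome had 1.52 and 1.25. The ratio of the surroundings was 1.21 against both, where all common regions had 1.13 and 1.14. Chromosome 15 had a high share of iWAT-only regions, 42.5% of its 2351 regions listed in 1 depot, while chromosome 14 had the highest, 43.6%, with 6.94% members. Chromosome 13 had tag ratios of 1.55 and 1.28. Across the 20 chromosomes the share of members went with the median tag ratio of iWAT to eWAT (Pearson's r 0.746, Spearman's rho 0.539), which share their tags. For the tag ratio of iWAT to BAT, r was 0.628 and rho 0.595. For the share of iWAT-only regions they were lower, 0.521 and 0.371. The part of such shifts of whole chromosomes in the choice of members was not tested.

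**Figure D5:**
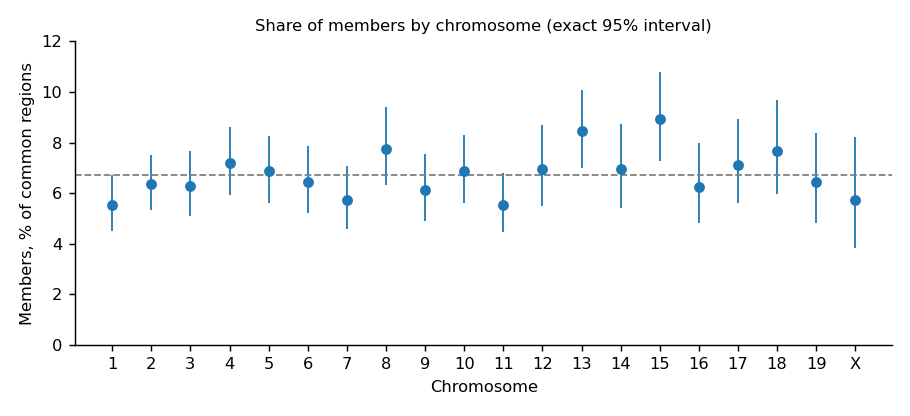
Members as a percentage of the common regions of each chromosome, with exact 95% intervals; the dashed line is the overall 6.70%. Chromosomes 13 and 15 lie highest, at 8.45% and 8.91%.

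Most windows with a member held only 1 of them. No such count was made for the other sets or for all common regions, so it does not show whether members are grouped or scattered. On a grid of 100 kb windows, 1430 windows held 1 member, 111 held 2 and 7 held 3. The first of the windows with 3 members, ranked by summed iWAT tags, ran from 60500001 to 60600000 on chromosome 13. It held 5 common regions in 20 regions of any kind, with 12 eWAT, 15 iWAT and 9 BAT sites. Its members held 17, 28 and 17 tags at 60510916 to 60511279, 20, 27 and 14 at 60568523 to 60568818, and 25, 41 and 21 at 60587558 to 60587862. The strongest region of this window, at 60529252 to 60529476, held 45, 79 and 47 tags and was no member, since its percentiles were 0.931, 0.996 and 0.957.

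The window on chromosome 8 from 36400001 to 36500000 was the only one of the first 5 in which every common region was a member. Of its regions, 2 lay 0.96 kb apart at 36438382 to 36438665 (9.52, 28.6 and 16.3 normalized tags) and 36439362 to 36439604 (8.92, 31.5 and 17.1). The third lay at 36468920 to 36469229 with 5.95, 32.5 and 11.1. Each library listed 6 sites in this window, so the numbers of sites were equal there while the tag counts differed. The window on chromosome 6 from 139800001 to 139900000 held 4 common regions, of which 3 were members. The window on chromosome 12 from 100600001 to 100700000 likewise held 3 members in 4 common regions, with 4 eWAT, 7 iWAT and 6 BAT sites. The window on chromosome 5 from 101000001 to 101100000 held 3 members in 5 common regions, with 12 eWAT, 11 iWAT and 6 BAT sites. None of these 5 windows held a region of the epididymal or the brown set. The windows were picked for the most members, which left few other common regions in them. Those sets made up only 7.12% and 8.97% of all common regions, so their absence here is a description and no finding about these loci.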

How the data were processed

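DNase-seq of 3 libraries was used. STAR, HOMER and mm9 are named in the submitters' processing notes, with no role or version. Per the file headers the authors' lists give a normalized tag count (a signal scaled to a total not given in the sources used here), a focus ratio (fraction), a peak score, a fold (ratio) over the surroundings, a p-value and a clonal fold; the deposited p-value was not used here. Depth is known only through the tags per site.

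Sites that overlapped or touched were merged, and percentiles used mean ranks. Recovered tags are tag counts divided by the step of their library, within 0.1 of a whole number in 99.9% to 100.0% of common regions. Surroundings are the tag density of the site divided by the fold, per kb, with the widths (220, 222 and 223 bp in eWAT, iWAT and BAT) at which surrounding tags came out whole over 10 kb. Shares carry Clopper-Pearson intervals and ratios of shares log-normal intervals, both for counting error only. Medians carry order-statistic intervals, which cover the spread over regions, taken as independent. In ratios of medians the median of the other common regions was held fixed. Regions named are the 10 members with the largest gap, the 10 with the highest iWAT tag count, 5 on each side of the limit, and the 5 windows of 100 kb with the most members; the closest pairs and single chromosomes were chosen after their values were seen. The members and lists were chosen with earlier results of these data known. Gene lists, motifs and promoter shares were not analysed here, as the gene table at hand is of another build. Code was tested on simulated data. Python 3.11.15, numpy 2.4.6, pandas 2.3.3, scipy 1.17.1 and matplotlib 3.10.9 were used.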

Additional observations from a re-analysis of the deposited data

How the results depend on the processing

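Ratios below are members over other common regions. The number of members was 3618 with a gap of 0.1, 703 with a gap of 0.3, 1057 with an overlap of at least 50% of the width, 116 with a tag ratio at least 2 times the median ratio, and 780 when ranks were taken only among regions with no other region within 5 kb; the last 2 settings were added after seeing the data. The ratio for a neighbouring member was 1.35 with a gap of 0.1, 3.65 with a gap of 0.3 and 2.68 with the 50% overlap; with the tag ratio rule, 0 of 30 members with a common neighbour had a member there, so no ratio was formed. With the fold over the surroundings in place of the tag count the ratios were 0.744 for a neighbouring member, 0.792 for iWAT-only, 1.08 for BAT-only and 0.867 for eWAT+iWAT regions nearby, 0.850 and 0.847 for the surroundings against eWAT and BAT, and 1.004 for chromosomes 13 and 15. All but the last turned direction, though the intervals for a neighbouring member and for BAT-only regions included 1, and 780 of the 1673 members were kept. The iWAT-only ratio, 1.02 as reported, was 0.975 with percentiles among all sites of each list, 0.972 with lists of equal length and 1.17 with the tag ratio rule, which gave 0.740 for BAT-only and 1.41 for eWAT+iWAT regions. With that rule the intervals of these ratios included 1. They were 0.888 to 1.55 for iWAT-only, 0.461 to 1.19 for BAT-only and 0.9885 to 2.02 for eWAT+iWAT regions. The eWAT+iWAT ratio was 1.001 within 50 kb. The surroundings ratios against eWAT and BAT, 1.09 and 1.15 as reported, were 1.15 and 1.18 with a gap of 0.3, 1.08 and 1.1 with percentiles among all sites, and 1.28 and 1.32 with the tag ratio rule; against eWAT it was 1.12 with the score and 1.12 with no other region within 5 kb. For chromosomes 13 and 15 the ratio was 1.58 with a gap of 0.3 and 1.86 with the tag ratio rule. Otherwise the values stayed within the intervals of the values as reported or within 1.5 times the number of members. A similar number did not mean the same members. Of the 1673, 1429 (85.4%) were kept with lists of equal length and 1411 (84.3%) with the score. With percentiles among all sites 1213 (72.5%) were kept. With a mean of at least 20 tags 548 (32.8%) were kept, as only 550 were among the regions then ranked. The interval of the BAT-only ratio, 0.790 to 0.994 as reported, reached 1.02 with the 50% overlap and with a mean of at least 20 tags. With the tag ratio rule it reached 1.19. Alternatives for promoter distance, sequence and gene lists were not run. No paired analysis was possible because each depot has 1 library. With 1 library a depot and a median of 13 to 24 tags a site, single members cannot be told from counting error, since they were picked on the same tags as the intervals.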
